A study of Homo sapiens and Canis lupus familiaris with 27 samples.

Results

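The 33 genes described here are targets of p53, the transcription factor that DNA damage and other stress switch on. They were selected by name from the gene count tables of 3 prostate carcinoma cell lines. All 33 were listed among the 23708 genes of the human lines PC-3 and LNCaP, and 29 among the 16028 genes of the canine line CT1258. The human and canine lines were treated with PDA-66, an indolylmaleimide, at 15 µM for 12 h or 24 h, and their controls received 0.15% DMSO, the solvent. There were 3 samples in each of the 9 groups apart from the PC-3 controls with 2, giving 26 samples. All controls were taken at 24 h according to their labels and served for the 12 h and the 24 h samples alike. In the 12 h comparisons, PDA-66 and the difference in time therefore cannot be told apart.

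PC-3 and LNCaP come from human prostate adenocarcinoma metastases, PC-3 from bone, and were kept in different media. As background, PC-3 lacks functional p53 and LNCaP carries the wild-type gene. The p53 status of CT1258 is not given in the sources used here. In unstressed cells MDM2 keeps p53 low by marking it for degradation. After stress, p53 accumulates, binds paired half-sites in DNA and raises genes that stop the cell cycle, repair DNA, trigger cell death or, like MDM2 itself, shut p53 off again. Several of these genes also respond to other factors, so that they can be expressed and regulated where p53 is missing.

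Sequencing depth ranged from 14650839 to 18091755 counts in the PC-3 samples, from 11923105 to 14741883 in those of LNCaP and from 7203534 to 20976950 in those of CT1258. LNCaP and PC-3 were told apart by markers such as KLK2 and VIM. KLK2 ranged from 254 to 390.2 CPM (normalized read count, scaled to library size by TMM) in the LNCaP DMSO samples and was at 0 in those of PC-3. VIM ranged from 12.3 to 14.9 CPM in LNCaP against 1815 to 2490 CPM in PC-3. HOXB13, also listed as a marker of LNCaP, went the other way. It was at 825 and 763 CPM in the PC-3 DMSO samples and at 480, 366 and 362 CPM in those of LNCaP. Of the defining markers in CT1258, TMPRSS2 was at 0 in all 9 samples and EPCAM was at most 0.262 CPM. KLK2 was at 10.8, 3.33 and 3.58 CPM in the CT1258 controls and at 0 in the 6 PDA-66 samples, and its part in the results was not tested.

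The p53 binding sites close to the start of these genes are shown because they are the sequence by which p53 recognizes its targets. A site was defined as 2 adjoining p53 consensus half-sites of 10 bases with the C and G core letters intact and at most 3 mismatches in all, and the search covered both strands because the half-site reads the same on each. It was run over RefSeq windows from 250 bases before to 50 bases after each gene start (GRCh38.p14). Such windows were found for 24 of the 33 genes. The other 9 were TNFRSF10B, TNFRSF10C, TNFRSF10D, TP53INP1, PHLDA3, RRM2B, ASCC3, GADD45A and TRIM22. A site was found in 8 of the 24 genes (33.3%) and in 1.37% of the 27305 genes with a window. An unmodified half-site was found in 7 of the 24 genes (29.2%) and in 8.06% of all genes. The sites read 5′ to 3′ on the strand of the gene, and capitals mark the letters that match the consensus. The distance given below is that of the first base of the site from the gene start.

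AEN: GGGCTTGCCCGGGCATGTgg
DDB2: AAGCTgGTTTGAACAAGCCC
FAS: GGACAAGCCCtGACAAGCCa
FDXR: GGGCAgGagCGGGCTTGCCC
GDF15: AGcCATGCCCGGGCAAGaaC
MDM2: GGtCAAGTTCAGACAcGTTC
RPS27L: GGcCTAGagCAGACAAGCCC
SESN1: GGACAAGTCTccACAAGTCa

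The DDB2 site had 1 mismatch and lay at chr11:47214969-47214988 on the plus strand, 5 bases before the start. The AEN site had 2 mismatches (chr15:88621306-88621325, plus strand, 34 bases before the start). The FAS site had 2 as well (chr10:88991309-88991328, plus strand, 122 bases before). The MDM2 site also had 2 (chr12:68808923-68808942, plus strand) and lay 94 and 101 bases before 2 annotated starts. The remaining 4 had 3 mismatches. The FDXR site was at chr17:74872996-74873015 on the minus strand, 21 bases before the start, and the RPS27L site at chr15:63157527-63157546 on the minus strand, 69 bases before it. The SESN1 site was at chr6:109009018-109009037 on the minus strand, 49 bases before the start. The GDF15 site was at chr19:18386186-18386205 on the plus strand, 28 bases after the start and so inside the transcribed part, while the DDB2 site spans its start. DDB2, FAS, FDXR, MDM2 and SESN1 also had windows at other annotated starts, and no such site was found in those. The distances are from the start of the window that holds the site. A match of letters is a description of the window, and binding was not measured.

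To ask how the p53 targets stood in untreated cells, the DMSO samples of PC-3 and LNCaP were compared in 1 fit of all 17 human samples. Of the 32 members tested, 11 were lower and 5 higher in PC-3 at an adjusted p under 0.001. Over all 15018 genes, 19.1% were called lower and 21.7% higher. The median log2 difference of the members was -0.73, against 0.01 over all genes. Without LNCaP DMSO replicate 1 the member median was -0.49, with 8 members lower and 5 higher. Over all genes, 2686 were called lower and 2969 higher of 14978 there. SPATA18, which encodes a regulator of mitochondrial quality, had too few counts to be tested. Line, culture medium and p53 status cannot be told apart in this comparison, and as in any bulk sample, fewer cells expressing a gene and less RNA per cell cannot be told apart either.

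Among the regulators of p53, MDM2 was at 112 and 113 CPM in PC-3 and at 812, 441 and 367 CPM in LNCaP. Its level was 4.81-fold lower in PC-3 (log2 -2.27 ± 0.274 SE, adjusted p = 1.70e-06), with no overlap between the lines. Without LNCaP DMSO replicate 1 and LNCaP PDA-66 12 h replicate 2, the log2 difference of MDM2 was -1.85 (adjusted p = 6.74e-11). CCNG1, the cyclin G1 gene that feeds back on p53, was lower by 2.54-fold (adjusted p = 5.22e-07). PPM1D, a phosphatase that switches off the damage response, had a log2 difference of -0.25 (adjusted p = 0.301).

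The largest differences toward LNCaP were in a decoy receptor, a growth inhibitor and regulators of cell death. TNFRSF10D, a decoy receptor for the death ligand TRAIL, was at 128, 99.9 and 93.3 CPM in LNCaP and had 1 and 2 counts in the PC-3 DMSO samples. The ratio of the summed counts, scaled to the normalized library sizes, was 1051 (95% exact interval 359 to 5098, counting error only). BTG2, an inhibitor of proliferation, was at 78.6, 34.3 and 33.9 CPM in LNCaP and at 0.550 and 0.750 CPM in PC-3, 74.4-fold lower (adjusted p = 1.75e-09). PHLDA3, an inhibitor of Akt, was at 106, 60.9 and 77.1 CPM against 1.44 and 1.91 CPM, 48.3-fold lower (adjusted p = 1.48e-08), and 18.4% of its exon bases are shared with another gene on the same strand. These genes were expressed in LNCaP and close to silent in PC-3.

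TP53INP1, which promotes p53 activity and autophagy, was at 711, 484 and 424 CPM in LNCaP and at 33 and 21.3 CPM in PC-3, 19.9-fold lower (adjusted p = 8.04e-09). SESN1, a sestrin that restrains mTORC1, was at 104, 102 and 71.2 CPM in LNCaP and at 8.66 and 6.20 CPM in PC-3, 12.4-fold lower (adjusted p = 2.30e-09). DRAM1, a regulator of autophagy, was 4.82-fold lower. ZMAT3, RRM2B and ASCC3 were lower by 3.08-, 2.80- and 2.64-fold. RRM2B supplies nucleotides for repair, ASCC3 is a helicase of alkylation repair and ZMAT3 is an RNA-binding protein. The calls of ASCC3, RRM2B and ZMAT3 were lost without LNCaP DMSO replicate 1 or either PC-3 DMSO sample, with adjusted p up to 0.0161, 0.00786 and 0.00991.

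The 5 members higher in PC-3 were SFN, PLK2, GADD45A, TP53I3 and GDF15. SFN, the 14-3-3σ gene that holds cells in G2, was at 151 and 167 CPM in PC-3 and at 1.13, 0.327 and 0.542 CPM in LNCaP. This was a 231-fold difference (adjusted p = 7.45e-10), with 27 counts in the 3 LNCaP samples together. PLK2, a kinase of the centriole cycle, was 6.25-fold higher (log2 2.64) and GADD45A, a damage-induced growth arrest gene, 3.92-fold higher. TP53I3, an oxidoreductase, was at 26.1 and 26.7 CPM in PC-3 and at 13.4, 3.6 and 4.41 CPM in LNCaP (adjusted p = 0.000255). Without LNCaP DMSO replicate 1 the log2 differences were larger, 3.35 against 2.64 for PLK2, 8.48 against 7.85 for SFN and 2.72 against 1.88 for TP53I3. The call of TP53I3 was lost in 4 of 17 fits without 1 sample, those without either PC-3 DMSO sample or LNCaP DMSO replicate 2 or 3 (adjusted p up to 0.00267).

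GDF15, a secreted stress cytokine of the TGF-β superfamily, had the highest level per kilobase of transcript of the members in both lines. It reached 1071 ± 303 CPM per kb (SD, n = 2) in PC-3 and 361 ± 95.9 CPM per kb (SD, n = 3) in LNCaP. In LNCaP CCNG1 followed at 220 ± 19.6 CPM per kb, and then TP53INP1 at 96.3 ± 27 and MDM2 at 72.1 ± 31.9, which lay within their SD of each other. In PC-3 the next were SFN at 122 ± 8.42 and GADD45A at 111 ± 50.7 CPM per kb, which also overlapped. GDF15 was 2.97-fold higher in PC-3 than in LNCaP, and the call was lost without PC-3 DMSO replicate 3 or LNCaP DMSO replicate 2 (adjusted p up to 0.00510).

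**Figure D1:**
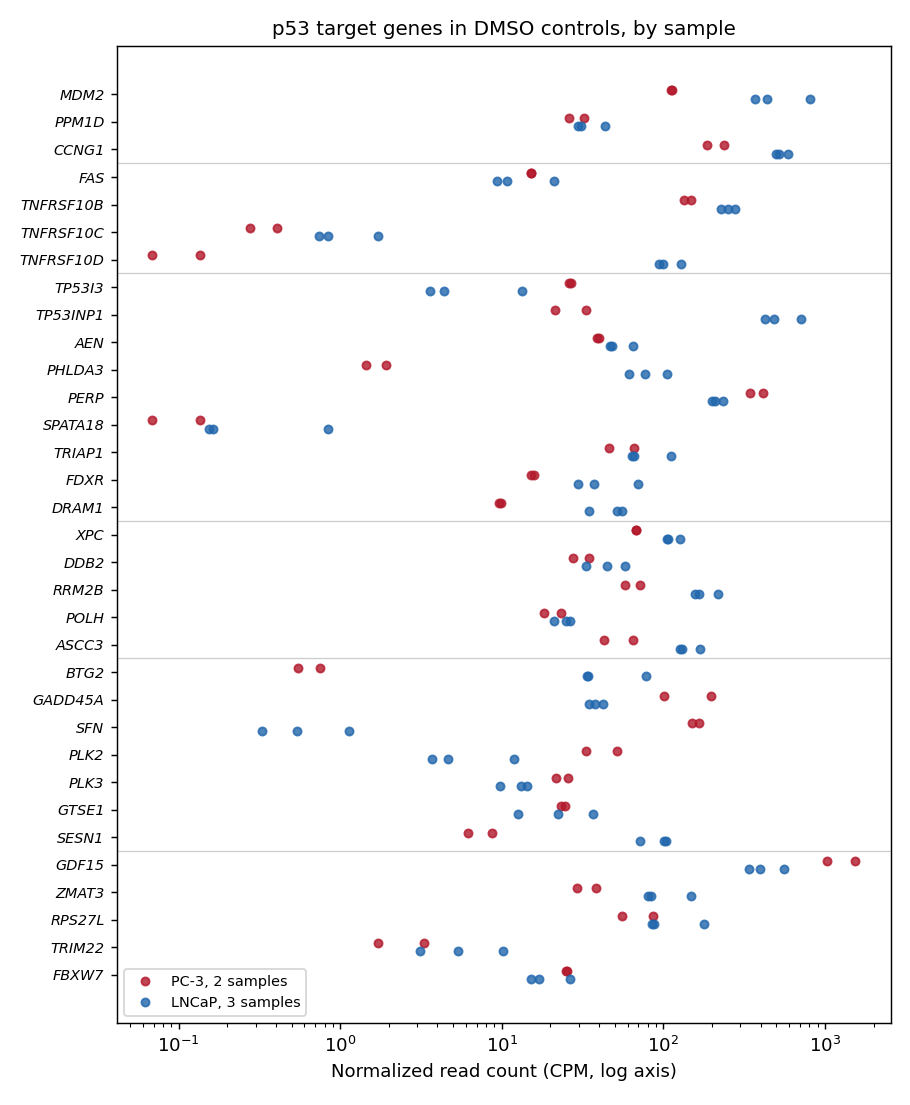
Normalized read counts (CPM, log axis) of the 33 p53 target genes in each DMSO sample, with 2 PC-3 samples in red and 3 LNCaP samples in blue, grouped by role. TNFRSF10D, BTG2, PHLDA3, TP53INP1 and SESN1 lie far lower in PC-3, and SFN lies at 151 and 167 CPM in PC-3 against at most 1.13 CPM in LNCaP.

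The LNCaP controls were not alike for these genes. DMSO replicate 1 was the highest of the 3 for 25 of the 32 members (78.1%), whereas it was the highest for 37.0% of all 13156 genes tested in this line. For 15 members it exceeded the mean of the other two by at least 1.5-fold, and for none was it lower by as much. CDKN1A, the p21 gene that arrests the cycle downstream of p53, was at 688 CPM there and at 173 and 238 CPM in the other two. MDM2 was 2.01-fold, FDXR 2.08-fold, RPS27L 2.06-fold, BTG2 2.31-fold, PLK2 2.86-fold and TP53I3 3.34-fold above their means.

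The PDA-66 12 h replicate 2 of LNCaP stood apart in another way, being the highest of its group for 15 members and the lowest for 15. This sample was the highest of its group for 45.1% of all genes and the lowest for 48.7%. FDXR was at 158 CPM in this sample and at 29.8 and 29.0 CPM in the others, and ASCC3 at 70.6 CPM against 174 and 159 CPM. The members that were highest there had a median transcript length of 2340 bases, and those that were lowest one of 5190 bases (14 of 15 with a length). Of 5 markers of other cell types, COL1A1 was at 119 CPM in this sample and between 18.0 and 27.9 CPM in the other LNCaP samples, COL3A1 was also highest there and at most 1.33 CPM in the others, and PTPRC, CD3E and PECAM1 were at most 0.140 CPM in all. The part of transcript length and of these markers in the values was not tested. The LNCaP counts and calls below rest on both samples and are therefore also given without them, an alternative chosen after seeing the data.

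**Figure D2:**
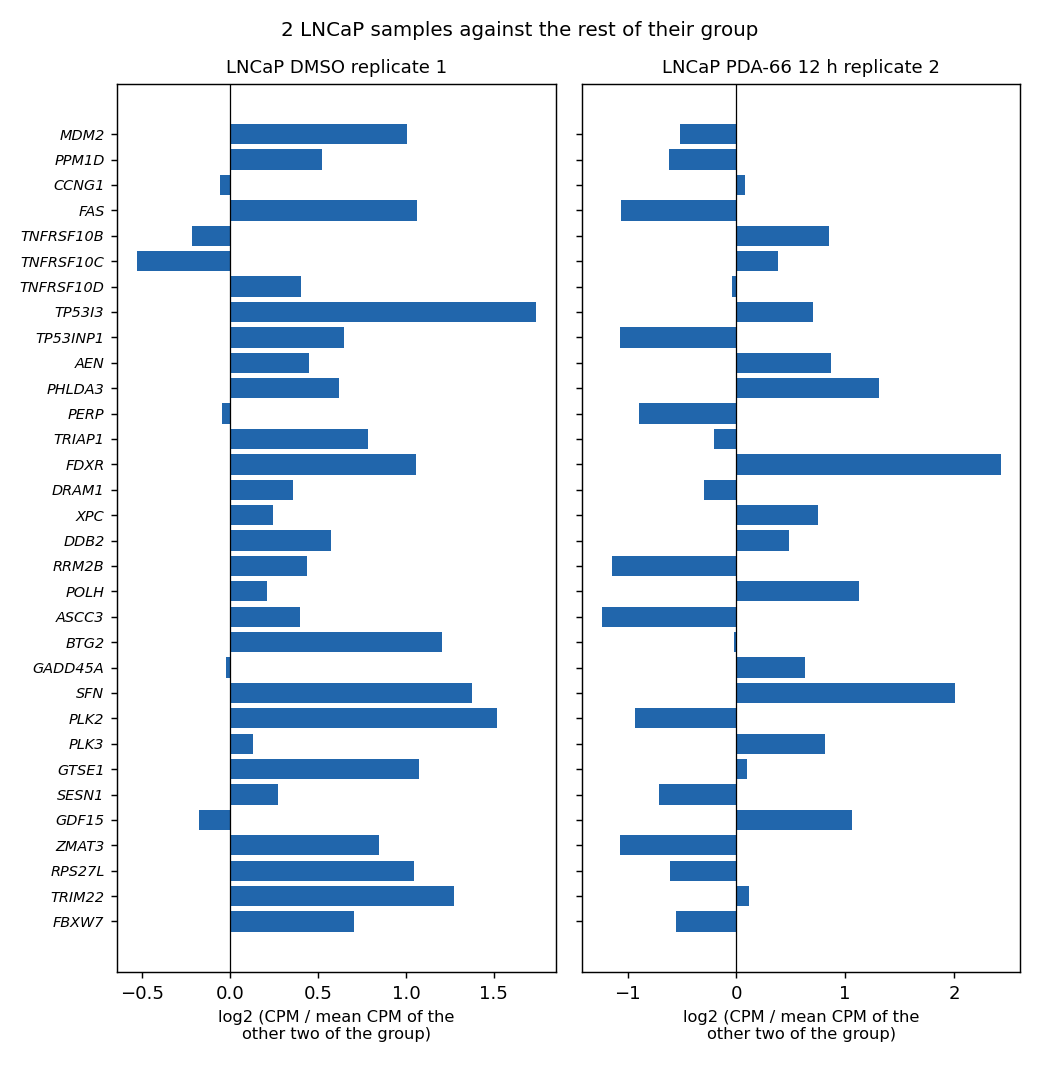
Log2 ratio of the CPM in LNCaP DMSO replicate 1 (left) and PDA-66 12 h replicate 2 (right) to the mean of the other two samples of the same group, for 32 p53 target genes. Most bars of DMSO replicate 1 point right, with 25 genes highest of 3, while PDA-66 12 h replicate 2 has 15 genes highest and 15 lowest.

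In PC-3, PDA-66 raised 5 and lowered 5 of the 30 members tested after 12 h at an adjusted p under 0.001. Over all 13777 genes, 13.0% rose and 14.6% fell. TNFRSF10C, TNFRSF10D and SPATA18 had too few counts to be tested. The median log2 fold change of the members was 0.10, against -0.01 over all genes. After 24 h, 2 members rose and 5 fell, against 8.88% and 10.5% of all genes, with a member median of -0.05. Among the markers of other cell types, PECAM1 was between 13.0 and 18.8 CPM with DMSO and between 4.18 and 5.27 CPM after 12 h, COL3A1 between 5.08 and 6.27 CPM and between 0.666 and 1.30 CPM, and COL1A1, PTPRC and CD3E were at most 9.57 CPM in all PC-3 samples. Their part in the results was not tested.

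GDF15 fell most. It was at 1029 and 1543 CPM with DMSO, at 175, 182 and 187 CPM after 12 h and at 284, 311 and 351 CPM after 24 h. All PDA-66 samples lay below both controls. The decrease was 7.14-fold at 12 h (log2 -2.84 ± 0.148 SE, adjusted p = 9.34e-09) and 4.10-fold at 24 h (adjusted p = 3.47e-07). The gene lies at chr19:18485541-18499986 (GRCh37, plus strand).

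TP53INP1 fell from 33 and 21.3 CPM to 9.03, 7.34 and 7.63 CPM after 12 h and 8.05, 7.74 and 6.43 CPM after 24 h, without overlap. The log2 fold changes were -1.76 ± 0.179 and -1.87 ± 0.181 (SE; adjusted p = 3.41e-06 and 4.59e-06). PERP, a desmosomal protein that can promote apoptosis, was at 342 and 415 CPM with DMSO, 176 to 187 CPM after 12 h and 224 to 267 CPM after 24 h. Its log2 fold changes were -1.07 (adjusted p = 3.38e-06) and -0.61 (adjusted p = 0.000540), and the second call was lost in 7 of 8 fits without 1 sample, all but the one without PC-3 DMSO replicate 2 (adjusted p up to 0.00374).

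CCNG1 was at 186 and 238 CPM with DMSO, at 129, 129 and 116 CPM after 12 h and at 155, 154 and 128 CPM after 24 h. The 12 h decrease of 1.71-fold passed the test (adjusted p = 0.000131), and was lost without PC-3 DMSO replicate 3 or PDA-66 12 h replicate 3 (adjusted p up to 0.00129). The 24 h log2 fold change was -0.55 (adjusted p = 0.00233). TRIM22, an antiviral ubiquitin ligase, was at 3.30 and 1.70 CPM with DMSO and at 0.959, 0.400 and 0.424 CPM after 12 h. Its log2 fold change of -2.04 ± 0.391 SE (adjusted p = 0.000638) rested on few counts and was lost in 6 of 8 fits without 1 sample, among them that without DMSO replicate 2 and the 3 without a 24 h sample (adjusted p up to 0.0119). PLK3, a stress-activated kinase, and RPS27L, a ribosomal protein paralog that binds MDM2, fell after 24 h only at this threshold, by 0.86 and 0.90 on the log2 scale. Their 12 h values were -0.51 (adjusted p = 0.00369) and -0.72 (adjusted p = 0.00151). The 24 h call of RPS27L was lost in 4 of 8 fits without 1 sample, those without DMSO replicate 3 or one of the 24 h samples (adjusted p up to 0.00345).

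GTSE1, a G2 and S phase protein that binds p53 and keeps it out of the nucleus, rose most. It was at 23.2 and 24.5 CPM with DMSO, at 54.3, 55.7 and 57.8 CPM after 12 h and at 42.6, 48.9 and 54.7 CPM after 24 h. The log2 fold changes were 1.22 ± 0.120 and 1.03 ± 0.120 (SE; adjusted p = 2.57e-06 and 1.96e-05), and no PDA-66 sample reached down to the controls. The gene lies at chr22:46692767-46726707 (GRCh37, plus strand).

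The repair genes POLH and ASCC3 rose as well. POLH, the translesion polymerase eta, was at 18.3 and 23.2 CPM with DMSO, at 42.6, 36.8 and 40.5 CPM after 12 h and at 30.0, 31.8 and 33.2 CPM after 24 h (log2 0.94, adjusted p = 3.84e-05; 0.60, adjusted p = 0.00163). ASCC3 was at 64.7 and 43.1 CPM with DMSO, at 101, 103 and 100 CPM after 12 h and at 112, 110 and 95.7 CPM after 24 h. Its log2 fold changes were 0.91 and 0.97 (adjusted p = 0.000157 and 0.000136). In both genes every PDA-66 sample exceeded the controls. The other 3 repair genes tested, XPC and DDB2 of damage recognition and RRM2B, did not pass, with log2 fold changes between -0.24 and 0.44.

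TP53I3 was at 26.1 and 26.7 CPM with DMSO, at 45.6, 43.0 and 41.1 CPM after 12 h and at 32.1, 35.5 and 38.8 CPM after 24 h. It rose after 12 h (log2 0.70 ± 0.112 SE, adjusted p = 0.000152) and had a log2 fold change of 0.42 after 24 h (adjusted p = 0.00762). The 12 h call was lost in 1 of 8 fits without 1 sample, a PDA-66 12 h sample of unclear replicate number (adjusted p = 0.00115). DRAM1 was at 9.62 and 9.95 CPM with DMSO and at 15.9, 16.9 and 15.8 CPM after 12 h (log2 0.72, adjusted p = 0.000496), a call that was lost in 6 of 8 such fits, including both without a DMSO sample (adjusted p up to 0.00312). MDM2 was between 91.0 and 125 CPM in all 8 PC-3 samples, so that the controls lay within the range of the treated samples. Its log2 fold changes were 0.09 and -0.11 (adjusted p = 0.503 and 0.423). The death receptors FAS and TNFRSF10B had log2 fold changes between -0.37 and 0.30 and did not pass the test.

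PHLDA3 and BTG2, which were near silent in PC-3, had few counts after PDA-66 as well. PHLDA3 was at 3.39, 3.94 and 3.82 CPM after 12 h and at 1.51, 2.43 and 2.56 CPM after 24 h (log2 1.13, adjusted p = 0.00241; 0.35, adjusted p = 0.312). BTG2 was at 1.30, 1.94 and 0.969 CPM after 12 h and between 0.899 and 0.936 CPM after 24 h (log2 1.08, adjusted p = 0.0270; 0.48, adjusted p = 0.346). Their values after 12 h lay above both controls without passing the threshold. In all, 18 of the 30 members tested in PC-3 passed at neither time, with log2 fold changes from -0.51 (TRIAP1 after 12 h) to 1.13 (PHLDA3 after 12 h). How many of all PC-3 genes passed at neither time was not counted.

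Between 12 h and 24 h, none of the 30 members differed in PC-3 by edgeR at an adjusted p under 0.001, against 1.41% of all genes. At an unadjusted p under 0.05 there were 10 members, against 3377 of the 13777 genes. Limma voom called 8 members, against 2320 genes, and DESeq2 2, against 514 genes. GDF15 had the largest value, with a log2 difference of 0.80 (adjusted p = 0.00200).

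**Figure D3:**
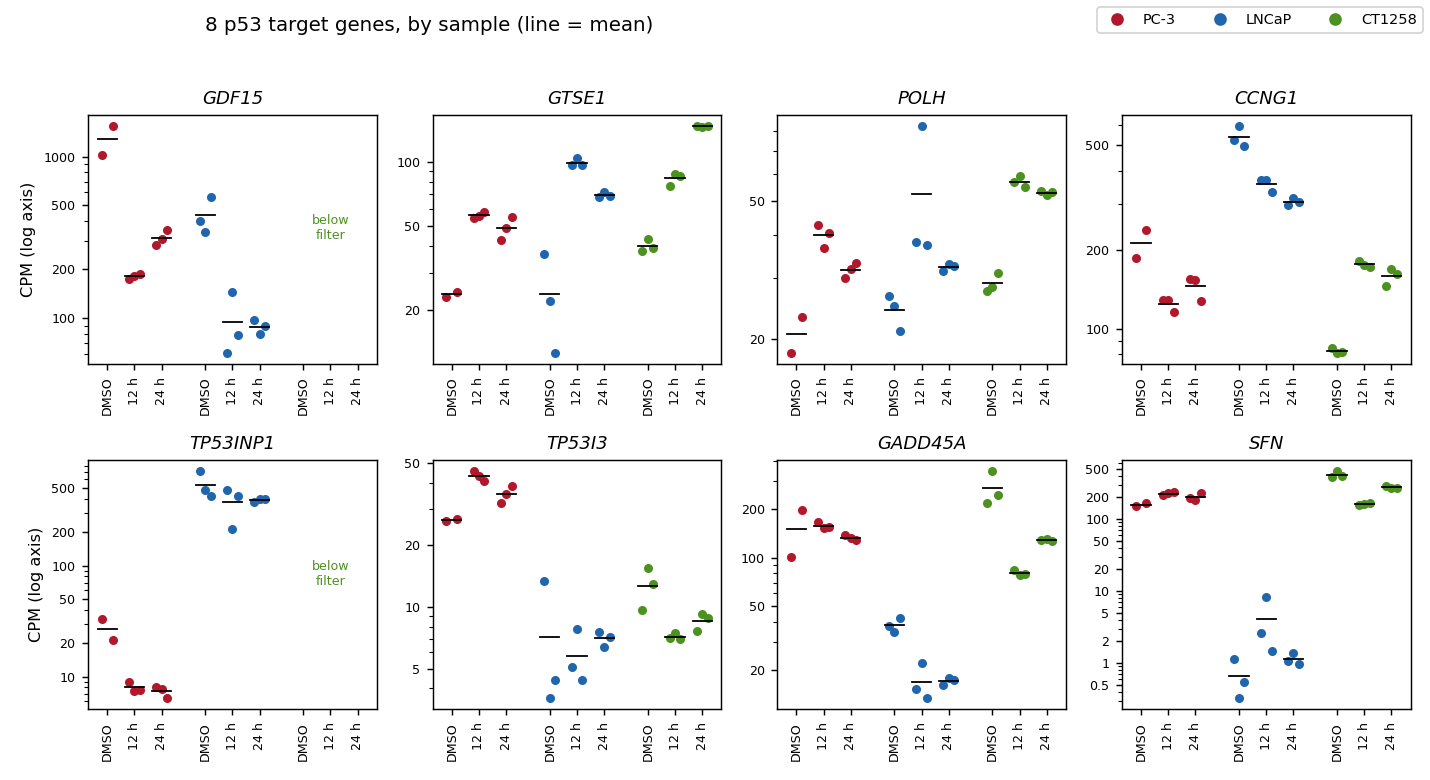
Normalized read counts (CPM, log axis) of 8 p53 target genes in every sample of PC-3 (red), LNCaP (blue) and CT1258 (green) with DMSO or after 12 h or 24 h of PDA-66, with the mean as a line. CT1258 was normalized apart from the human lines, and GDF15 and TP53INP1 were below its count filter. GTSE1 lies above the controls in all PDA-66 groups, and CCNG1 lies lower in PC-3 and LNCaP and higher in CT1258.

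In LNCaP, none of the 32 members tested differed from DMSO at an adjusted p under 0.001 after either time by edgeR. Over all 13156 genes, 0.0076% (1 gene) were called after 12 h and 0.0% after 24 h. At an unadjusted p under 0.05 there were 10 members after 12 h and 6 after 24 h, against 3950 and 2599 of the 13156 genes. DESeq2 called 5 and 4 members, against 620 and 286 genes, and limma voom 8 and 8, against 1831 and 1473 genes. Without PDA-66 12 h replicate 2, edgeR called 3 members at each time, against 261 and 105 of 13335 genes. The spread between samples was wider in this line, with a common biological coefficient of variation of 0.240 against 0.0971 in PC-3.

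At an adjusted p under 0.05, 3 members rose and 5 fell after 12 h, against 4.52% and 4.62% of all genes. After 24 h, 1 rose and 4 fell, against 1.35% and 1.57%. Without the 2 samples that stood apart, 2 members rose and 5 fell at an adjusted p under 0.001 after 12 h, against 7.28% and 6.57% of all genes. After 24 h there were again 2 and 5, against 7.34% and 7.04%. CCNG1, GADD45A, GDF15, TNFRSF10B and TNFRSF10D fell and GTSE1 rose in both, joined by POLH after 12 h and ASCC3 after 24 h. At an adjusted p under 0.05, 12 then rose and 7 fell after 12 h, against 22.6% and 23.8% of all genes, and 10 and 9 after 24 h, against 23.3% and 23.4%.

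GDF15 was at 398, 340 and 562 CPM with DMSO, at 61.1, 145 and 78.1 CPM after 12 h and at 96.7, 79.5 and 88.9 CPM after 24 h. No PDA-66 sample overlapped the controls. The decreases were 4.41-fold (log2 -2.14, adjusted p = 0.00817) and 4.80-fold (log2 -2.26, adjusted p = 0.0177), and without the 2 samples the log2 values were -2.66 and -2.32. GTSE1 was at 36.6, 22.2 and 12.6 CPM with DMSO, at 96.1, 103 and 96.7 CPM after 12 h and at 67.9, 71.9 and 68.5 CPM after 24 h. All PDA-66 samples were above all controls, and the log2 fold changes were 2.10 ± 0.319 and 1.57 ± 0.314 (SE; adjusted p = 0.00817 and 0.0361), or 2.51 and 2.03 without the 2 samples.

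TNFRSF10D was at 47.4, 46.2 and 47.5 CPM after 12 h and at 67.6, 59.5 and 64.9 CPM after 24 h, all below the controls. It fell by 1.14 (adjusted p = 0.00773) and by 0.71 (adjusted p = 0.0459) on the log2 scale, and the log2 values were -0.99 and -0.56 without the 2 samples. CCNG1 was at 523, 592 and 499 CPM with DMSO, at 368, 369 and 332 CPM after 12 h and at 296, 316 and 303 CPM after 24 h. The log2 fold changes were -0.55 and -0.79 (adjusted p = 0.0338 and 0.0247), and -0.61 and -0.81 without the 2 samples. GADD45A was at 37.7, 34.5 and 42.3 CPM with DMSO, at 15.3, 22.3 and 13.5 CPM after 12 h and at 16.2, 17.9 and 17.3 CPM after 24 h. It fell by 1.12 and 1.13 on the log2 scale (adjusted p = 0.0150 and 0.0313), and here too the groups did not overlap. Without the 2 samples its log2 values were -1.38 and -1.13.

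SESN1 fell after 12 h, from 104, 102 and 71.2 CPM to 60.5, 34.0 and 50.7 CPM (log2 -0.89, adjusted p = 0.0406). POLH rose from 26.6, 24.9 and 21.1 CPM to 38.2, 82.4 and 37.4 CPM (log2 1.17, adjusted p = 0.0417), where the value of 82.4 CPM belongs to replicate 2. SFN rose from 1.13, 0.327 and 0.542 CPM to 2.59, 8.15 and 1.47 CPM (log2 2.61, adjusted p = 0.0414), again with replicate 2 the highest. Without both samples that stood apart, the log2 fold changes at 12 h were -0.60 for SESN1 (adjusted p = 0.00837), 0.75 for POLH (adjusted p = 0.000417) and 2.24 for SFN (adjusted p = 0.00207). Of these 8 calls, those of GDF15, GTSE1 and TNFRSF10D held at an adjusted p under 0.05 in all 9 fits without 1 sample. All 8 were lost where only the 12 h and DMSO samples were fitted, these 3 with an adjusted p = 0.0664 each. The SFN value was 3.24 without DMSO replicate 1 and 1.61 without PDA-66 12 h replicate 2. GADD45A was lost without DMSO replicate 3 (adjusted p = 0.0691), and the other 4 in 5 to 7 fits each (adjusted p up to 0.165), including those without DMSO replicate 2, DMSO replicate 3 or one of the 24 h samples. All 5 calls at 24 h were lost in 5 to 8 of these fits, those without one of the 24 h samples or DMSO replicate 2 or 3 among them (adjusted p up to 0.227).

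MDM2 was at 375, 247 and 331 CPM in LNCaP after 12 h and at 348, 380 and 363 CPM after 24 h, against 812, 441 and 367 CPM with DMSO. The log2 fold changes were -0.72 (adjusted p = 0.125) and -0.54 (adjusted p = 0.323), and they were -0.16 and -0.12 without the 2 samples that stood apart. CDKN1A was at 271, 830 and 331 CPM after 12 h and at 330, 296 and 310 CPM after 24 h (log2 0.43, adjusted p = 0.608; -0.20, adjusted p = 0.886). Its PDA-66 values lay inside the range of the controls except in replicate 2 after 12 h. Without the 2 samples the log2 fold changes of CDKN1A were 0.58 and 0.63 (adjusted p = 0.00596 and 0.00240). None of the 8 apoptosis and mitochondria genes tested passed an adjusted p under 0.05 at either time. Without the 2 samples TRIAP1 passed 0.05 after 12 h (log2 0.37, adjusted p = 0.00986) and TRIAP1 (0.42), TP53I3 (0.84), PHLDA3 (-0.38) and PERP (-0.26) after 24 h. PHLDA3, for example, was at 48.9, 140 and 64.5 CPM after 12 h and at 55.8, 47.8 and 51.6 CPM after 24 h (log2 0.11, adjusted p = 0.868; -0.63, adjusted p = 0.392). BTG2 was at 48.1, 49.8 and 53 CPM and at 36.5, 32.1 and 32.5 CPM. DMSO replicate 1 was above all of these and the other two controls were at 34.3 and 33.9 CPM, and without the 2 samples BTG2 had a log2 fold change of 0.60 after 12 h (adjusted p = 0.00112). In all, 24 of the 32 members passed 0.05 at neither time, with log2 fold changes from -0.75 (ZMAT3) to 0.73 (FDXR), both after 12 h. Without the 2 samples this number was 10. The genes that passed at neither time were not counted over all genes of LNCaP. Between 12 h and 24 h no member differed in LNCaP at an adjusted p under 0.001 by edgeR (0.0% of all genes), DESeq2 (1 gene) or limma voom (189 genes). There was also none by edgeR without the 2 samples. With all samples, 4 members had an unadjusted p under 0.05, against 837 of the 13156 genes.

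In CT1258, 5 of the 24 members tested rose and 6 fell after 12 h at an adjusted p under 0.001, against 22.2% and 22.1% of all 9886 genes. After 24 h 6 rose and 5 fell, against 16.6% and 17.2%. The member medians were 0.07 and -0.06. Instead of 11 members at each time, 7 were called at 12 h without PDA-66 12 h replicate 1 or 2, and 7 and 6 at 24 h without PDA-66 24 h replicates 2 and 3. Over all genes, 3206 and 3238 were then called at 12 h instead of 4383, and 2163 and 2116 at 24 h instead of 3340. TP53INP1, SPATA18, DRAM1, GDF15 and TRIM22 had too few counts to be tested, and TNFRSF10B, TNFRSF10C, TNFRSF10D, PHLDA3 and CDKN1A were not analysed in this line. The markers PTPRC, COL1A1 and COL3A1 of other cell types were at most 0.982 CPM in all samples. In all, 12 of the 24 members passed at neither time, with log2 fold changes from -0.77 (BTG2 after 24 h) to 0.60 (ASCC3 after 12 h). For all genes of CT1258 this was not counted.

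CCNG1 was at 84.4, 81.2 and 81.6 CPM with DMSO, at 181, 176 and 172 CPM after 12 h and at 146, 170 and 162 CPM after 24 h. It rose 2.14-fold after 12 h (log2 1.10 ± 0.0794 SE, adjusted p = 6.38e-08), with the groups far apart. GTSE1 was at 38.1, 43.1 and 39.3 CPM with DMSO, at 77.0, 87.2 and 85.8 CPM after 12 h and at 146, 145 and 147 CPM after 24 h. Its log2 fold changes were 1.05 ± 0.0850 and 1.86 ± 0.0850 (SE; adjusted p = 1.60e-07 and 1.60e-09), the largest increase of a member in this line. POLH was at 27.5, 28.3 and 31.1 CPM with DMSO, at 57.0, 59.1 and 54.8 CPM after 12 h and at 53.4, 52.2 and 53.2 CPM after 24 h (adjusted p = 5.24e-07 and 2.87e-06).

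RRM2B (log2 0.73 at both times) and TRIAP1, an inhibitor of apoptosis at the mitochondrion (0.81 and 0.75), rose too. MDM2 rose after 24 h, from 69.0, 78.5 and 68.6 CPM to 92.8, 99.4 and 95.1 CPM (log2 0.41, adjusted p = 0.000652). The MDM2 call was lost in 8 of 9 fits without 1 sample, all but that without DMSO replicate 2 (adjusted p up to 0.00569). RRM2B was lost without PDA-66 12 h replicate 1 at 12 h and without 24 h replicate 2 or 3 at 24 h (adjusted p up to 0.00143). TRIAP1 was lost without 12 h replicate 2 at 12 h and without 24 h replicate 2 or 3 or DMSO replicate 3 at 24 h (adjusted p up to 0.00439).

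Of the 6 decreases after 12 h, 3 were cell cycle arrest genes (GADD45A, PLK3 and SFN), 2 apoptosis and mitochondria genes (FDXR and TP53I3) and 1 a death receptor (FAS). GADD45A was at 217, 343 and 246 CPM with DMSO, at 83.9, 78.1 and 79.0 CPM after 12 h and at 128, 130 and 127 CPM after 24 h, 3.34-fold lower after 12 h (adjusted p = 1.23e-07). PLK3 was at 78.0, 104 and 86.4 CPM with DMSO, at 21.4, 22.7 and 31.5 CPM after 12 h and at 31.4, 30.6 and 27.5 CPM after 24 h, 3.56-fold lower after 12 h (adjusted p = 1.51e-07). SFN was at 391, 463 and 397 CPM with DMSO, at 156, 163 and 170 CPM after 12 h and at 290, 271 and 269 CPM after 24 h (log2 -1.35 and -0.59). In these 3 genes all PDA-66 samples lay below all controls.

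FDXR, a mitochondrial reductase, was at 42.8, 66.6 and 43.0 CPM with DMSO, at 26.1, 28.1 and 26.6 CPM after 12 h and at 24.1, 30.7 and 26.7 CPM after 24 h. It fell by 0.91 and 0.90 on the log2 scale (adjusted p = 0.000185 and 0.000276). FAS, the receptor of the FAS ligand, was at 51.0, 65.0 and 51.6 CPM with DMSO, at 36.2, 39.7 and 39.3 CPM after 12 h and at 39.2, 37.0 and 34.5 CPM after 24 h (log2 -0.54 and -0.60, adjusted p = 0.000641 and 0.000376). TP53I3 fell after 12 h, from 9.62, 15.4 and 13.0 CPM to 7.06, 7.44 and 6.95 CPM (log2 -0.82, adjusted p = 0.000934). In each of these 3 genes, and also in GADD45A, PLK3 and SFN, DMSO replicate 2 was the highest control. Over all genes, this sample differed more from the other two (chi-square per degree of freedom 50.7 and 50.9) than they did from each other (3.81). Without it 15 members were called after 24 h, against 4629 of 9934 genes, instead of 3340 of 9886 with it. The calls of FDXR, FAS and TP53I3 were lost in 2 to 7 of 9 fits without 1 sample. FDXR was lost without 2 or all 3 samples of the PDA-66 group concerned, FAS without each of those 3 samples and at 12 h also without each 24 h sample, and TP53I3 without each PDA-66 sample or DMSO replicate 3 (adjusted p up to 0.00572). Sequencing of the CT1258 controls was 2.64 times as deep as that of the PDA-66 samples, and with their counts thinned FAS and TP53I3 at 12 h and TRIAP1 at 24 h did not pass (adjusted p = 0.00120, 0.00197 and 0.00103).

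Between 12 h and 24 h GTSE1 and SFN rose in CT1258, by 0.81 and 0.76 on the log2 scale (adjusted p = 6.57e-05 and 0.000104), against 2.13% of all genes called in either direction. Both calls depended on single samples. That of GTSE1 was lost without PDA-66 12 h replicate 1 (adjusted p = 0.00116), and that of SFN in 5 of 9 fits, those without 12 h replicate 1 or 2 or one of the 24 h samples (adjusted p up to 0.00159).

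**Figure D4:**
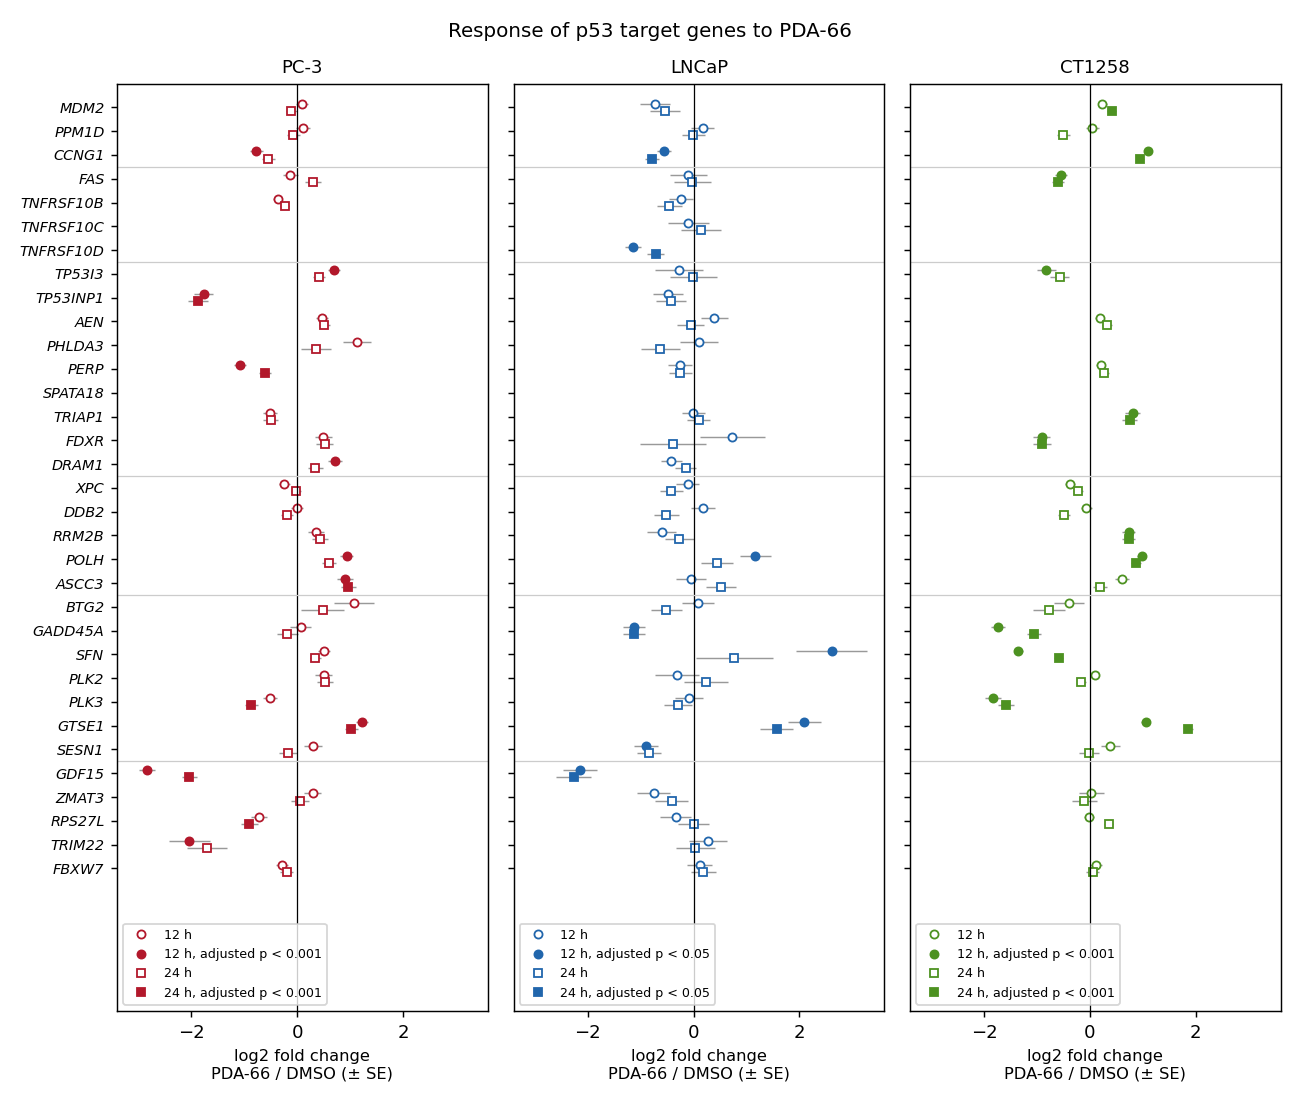
Log2 fold change of PDA-66 over DMSO (± SE) after 12 h (circles) and 24 h (squares) for the p53 target genes tested in PC-3, LNCaP and CT1258, grouped by role. Filled symbols passed an adjusted p under 0.001 in PC-3 and CT1258 and under 0.05 in LNCaP. GTSE1 and POLH lie above 0 and PLK3 below 0 in all 6 comparisons, and CCNG1 is filled on opposite sides in PC-3 and CT1258.

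Side by side, GTSE1 and POLH had log2 fold changes above 0 in all 6 comparisons with DMSO, and PLK3 and XPC below 0 in all 6. XPC did not pass an adjusted p under 0.001 in any of them. How many of all genes kept 1 direction throughout was not counted, so this is a description of single members only. The 12 h and 24 h groups of a line share their controls. GDF15, TP53INP1 and TNFRSF10B were below 0 in all 4 comparisons in which they were tested. Without the 2 LNCaP samples that stood apart, TP53INP1 was at 0.03 in LNCaP after 12 h (adjusted p = 0.807). CCNG1 was called lower in PC-3 and higher in CT1258, and TP53I3 higher in PC-3 and lower in CT1258, both after 12 h. The difference between the human and the canine line was not tested for them.

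To contrast the p53-null line with the p53-competent line, the difference of the PDA-66 response (PC-3 minus LNCaP) was tested. The fit of all 17 human samples was used, at an adjusted p under 0.05. Line, culture medium and p53 status cannot be told apart in this test either. After 12 h the response was higher in PC-3 for 3 and lower for 3 of the 32 members, against 6.92% and 6.8% of all genes. After 24 h it was lower for 1 member and higher for none, against 2.51% and 3.48%. Without LNCaP PDA-66 12 h replicate 2 the counts were 11 and 7, against 3647 and 3132 of 14979 genes. Without LNCaP DMSO replicate 1 there were 5 after 24 h, against 1286 of 14978 genes. Without PC-3 DMSO replicate 2 there were 2 after 12 h, and 3 without either of 2 PC-3 PDA-66 12 h samples.

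DRAM1 (difference 1.19 ± 0.254 SE, adjusted p = 0.00590), GADD45A (1.25 ± 0.316, adjusted p = 0.0159) and SESN1 (1.24 ± 0.309, adjusted p = 0.0146) responded higher in PC-3 after 12 h. DRAM1 was at 55.3, 34.6 and 51.7 CPM in LNCaP with DMSO and at 38.6, 29.6 and 34.3 CPM after 12 h, whereas its PC-3 values rose, as given above. GADD45A was at 101 and 198 CPM in PC-3 with DMSO and at 166, 152 and 156 CPM after 12 h, between the controls, while it fell in LNCaP. SESN1 was at 8.66 and 6.20 CPM in PC-3 with DMSO and at 9.42, 9.81 and 8.42 CPM after 12 h. For GADD45A and SESN1 the difference thus came with a decrease in LNCaP and no called change in PC-3.

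TP53INP1 responded lower in PC-3 at 12 h (-1.23 ± 0.383 SE, adjusted p = 0.0426) and at 24 h (-1.41 ± 0.384, adjusted p = 0.0394). In LNCaP it was at 484, 217 and 423 CPM after 12 h and at 375, 401 and 398 CPM after 24 h. TRIM22 (-2.25 ± 0.595, adjusted p = 0.0199) and SFN (-2.03 ± 0.654, adjusted p = 0.0492) also responded lower in PC-3 after 12 h. SFN was at 214, 229 and 239 CPM in PC-3 after 12 h, against at most 8.15 CPM in LNCaP. TRIM22 was at 10.2, 3.11 and 5.34 CPM in LNCaP with DMSO and at 8.35, 7.68 and 5.82 CPM after 12 h. For SFN, limma voom gave a difference of -1.03 (adjusted p = 0.188), and the difference was -2.66 without LNCaP DMSO replicate 1 and -1.06 without LNCaP PDA-66 12 h replicate 2. DRAM1 kept its call in all 17 fits without 1 sample. GADD45A lost it without PC-3 DMSO replicate 2 (adjusted p = 0.0585), SESN1 without PC-3 DMSO replicate 3 (adjusted p = 0.106) and TRIM22 in 3 fits, among them that without PC-3 DMSO replicate 2 (adjusted p = 0.125). The calls of SFN and of TP53INP1 at 12 h were each lost in 14 of 17 fits, and that of TP53INP1 at 24 h in 12, with adjusted p up to 0.195.

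Without the 2 LNCaP samples that stood apart, 17 members differed in response after 12 h, 8 higher and 9 lower in PC-3, against 16.4% and 14.9% of all genes. After 24 h there were 11, 5 higher and 6 lower, against 15.6% and 13.3%. The 6 calls at 12 h and that at 24 h were among them. At both times RPS27L (-0.94 and -1.29), TRIAP1 (-0.83 and -0.86), GTSE1 (-1.24 and -0.95), FBXW7 (-0.78 and -0.60), TP53INP1 and TRIM22 then responded lower in PC-3, and GADD45A, RRM2B (0.56 and 0.60) and TNFRSF10B (0.34 and 0.34) higher. RPS27L, TRIAP1, FBXW7 and TNFRSF10B were named after their values were seen. The difference for MDM2 was 0.86 after 12 h (adjusted p = 0.0998) and 0.30 without these samples (adjusted p = 0.177). The DMSO comparison of the lines had 22 members called without them, 14 lower and 8 higher in PC-3, against 28.0% and 29.8% of all genes.

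**Figure D5:**
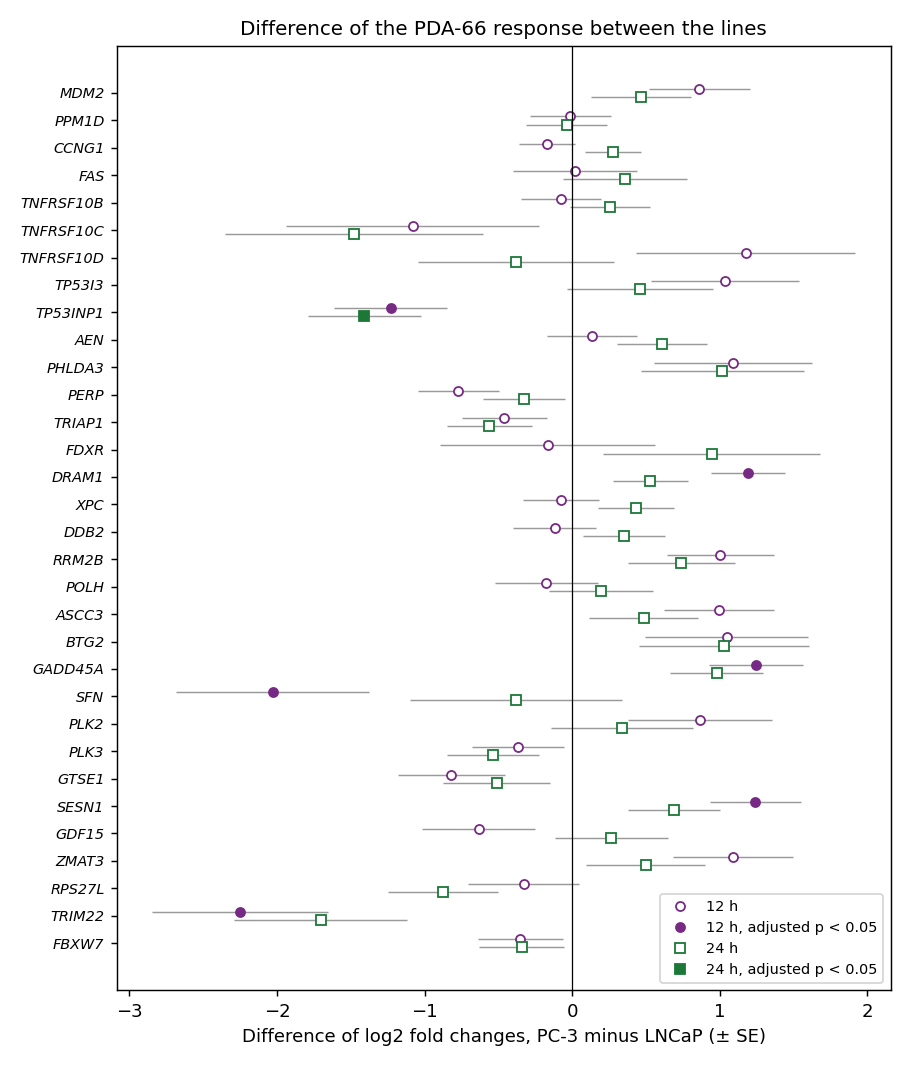
Difference of the log2 fold changes with PDA-66, PC-3 minus LNCaP (± SE), after 12 h (circles) and 24 h (squares) for 32 p53 target genes. Filled symbols passed an adjusted p under 0.05, which were DRAM1, GADD45A, SESN1, SFN, TP53INP1 and TRIM22 after 12 h and TP53INP1 after 24 h.

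Other genes of the pathway were taken from a list of 36, made up of genes of the upstream pathway and of further targets. In PC-3, 7 of the 32 tested rose and 5 fell after 12 h at an adjusted p under 0.001, against 13.0% and 14.6% of all genes, and 5 and 3 after 24 h, against 8.88% and 10.5%. In LNCaP none passed an adjusted p under 0.001, and 2 and 4 passed 0.05 after 12 h (4.52% and 4.62% of all genes) and 0 and 2 after 24 h (1.35% and 1.57%). Without the 2 samples that stood apart, 3 of 31 rose and 4 fell at an adjusted p under 0.001 after 12 h, against 7.28% and 6.57% of all genes. After 24 h there were 2 and 3, against 7.34% and 7.04%. In CT1258, 7 of 22 rose and 4 fell after 12 h at an adjusted p under 0.001, against 22.2% and 22.1% of all genes, and 5 and 3 after 24 h, against 16.6% and 17.2%.

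CDKN1A rose in PC-3, from 50.6 and 39.1 CPM to 92.6, 104 and 99.1 CPM after 12 h and 72.7, 76.6 and 81.3 CPM after 24 h. The log2 fold changes were 1.13 ± 0.120 and 0.77 ± 0.119 (SE; adjusted p = 5.22e-06 and 0.000176), and no PDA-66 sample overlapped the controls. The largest change of a listed pathway gene in CT1258 was that of THBS1, thrombospondin 1, at 2.28, 1.79 and 2.43 CPM with DMSO and 4.66, 9.47 and 7.08 CPM after 12 h (log2 1.71, adjusted p = 3.41e-05).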

How the data were processed

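RNA was poly(A)-selected and sequenced as single reads. The study used STAR 2.3.1s and hg19 for the human reads, and BWA and CanFam3.1 for the canine ones. The authors deposited raw counts per gene and tested them with edgeR 3.14.0. The treatment of multimapping reads and of strand is not given in the sources used here. A PC-3 control excluded by the study was not analysed here. Separators behind the counts of 1 sample were removed. For 2 PC-3 PDA-66 12 h samples the labels leave the replicate number open.

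Tests here were run in edgeR 4.0.16 (with limma 3.58.1 and DESeq2 1.42.0 for alternatives, in R 4.3.3). After filterByExpr and TMM scaling, the quasi-likelihood F test was applied to the 3 groups of a line in 1 fit. P-values were adjusted by the Benjamini-Hochberg method over all genes tested, with 0.001 as the threshold, or 0.05 for the difference in response, which was fitted on both human lines together (15018 genes). CPM values come from that fit or, for CT1258, from its own, and fold changes against DMSO from the fit of each line. SE is the log2 fold change divided by the square root of F. P-values measure the spread between these samples. Depths are given with the results, and intervals cover counting error only. Replicates of a group differed by more than sampling noise in every pair.

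The members, their roles and the pathway list were chosen with earlier results of these data known. Values by sample are given for the member with the largest called change per role and line, those called in opposite directions in 2 lines, the 6 with the smallest adjusted p for the difference in response and the 6 with the largest difference between the lines with DMSO, and for CDKN1A and, in CT1258, the called pathway gene with the largest change. Some genes covered by this rule are not reported here. MDM2, PERP and PLK3 were added after seeing values. Alternatives were RLE size factors, no filter, at least 1 CPM in 3 samples, DESeq2, limma voom with quality weights, another threshold, only the 2 groups compared, a replicate block, thinned CT1258 DMSO counts and leaving out each sample. Where 1 sample of a group remained, it was assumed to vary like the others. Tests were checked on simulated data. Gene positions and exon overlaps are from GENCODE on GRCh37.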

Additional observations from a re-analysis of the deposited data

Results flagged for a closer look

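For 6 members the response to PDA-66 after 12 h differed between PC-3 and LNCaP by the test of the difference itself, given as PC-3 minus LNCaP on the log2 scale. These were DRAM1 (1.19), GADD45A (1.25), SESN1 (1.24), SFN (-2.03), TP53INP1 (-1.23) and TRIM22 (-2.25). After 24 h TP53INP1 differed (-1.41). Of the 32 members, 3 thus responded higher and 3 lower in PC-3 after 12 h, against 6.92% and 6.8% of all genes. After 24 h 1 responded lower, against 2.51%. The calls of SFN and TP53INP1 were lost in most fits without 1 sample. LNCaP DMSO replicate 1 had the highest DRAM1, SESN1, SFN, TP53INP1 and TRIM22 of its group. Without this sample and PDA-66 12 h replicate 2, the differences at 12 h were 0.97 for DRAM1, 1.5 for GADD45A, 0.95 for SESN1, -1.69 for SFN, -1.75 for TP53INP1 and -2.76 for TRIM22, and that of TP53INP1 at 24 h was -1.64. All 7 passed an adjusted p under 0.05 there. Over all genes, 4674 and 4318 of 14940 were called in that fit, instead of 2060 and 899 of 15018.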

How the results depend on the processing

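No called member changed its direction under any alternative run. Counts of members called moved by over 1.5 times as follows, and the cause was not tested. At an adjusted p under 0.05 they were 21 in PC-3 after 12 h, 19 after 24 h and 3 between the times, 8 and 5 in LNCaP, 18 in CT1258 after 24 h and 7 between the times, and 26 for the lines with DMSO. Over all genes, 7853, 6873 and 1390 of 13777 then passed in PC-3, and 1202 and 384 of 13156 in LNCaP. In CT1258, 6142 and 1907 of 9886 passed, and 9549 of 15018 for the lines with DMSO. At 0.001 the response differed for 0 members at both times, against 230 and 40 of 15018 genes. DESeq2 gave 5 and 4 in LNCaP, 2 between the times in PC-3 and 2 for the response after 24 h. Over all genes it called 620 and 286, 514 and 1470 in the same order. Limma voom gave 8 and 8 in LNCaP, 8 between the times in PC-3 and in CT1258, and 12 and 7 for the response. Its counts over all genes were 1831 and 1473, 2320 and 2073, and 3752 and 2936. Fits of only 2 groups gave 1 in LNCaP after 24 h, 2 between the times in PC-3, and 7 after 24 h and 5 between the times in CT1258. Over all genes these fits called 8, 479, 2407 and 1172 in the same order. Without a filter 1 member was called between the times in PC-3, against 285 of 19781 genes. Without both LNCaP samples that stood apart, 7 and 7 were called in LNCaP and 17 and 11 for the response. The counts over all genes were 1834 and 1905 of 13247, and 4674 and 4318 of 14940.

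Leaving out 1 sample gave 7 to 11 members in PC-3 after 12 h, 5 to 10 after 24 h and 0 to 2 between the times, 0 to 3 in LNCaP at either time and 0 to 0 between the times, 7 to 13, 6 to 15 and 0 to 5 in CT1258, 11 to 21 for the lines with DMSO, and 2 to 11 and 0 to 7 for the response. Over all genes, fits with both PC-3 controls called 2481 to 3711 in PC-3 after 12 h and 1551 to 2179 after 24 h. Between the times these fits called 59 to 79. The ranges in CT1258 were 3206 to 5567, 2116 to 4629 and 20 to 1352. With both PC-3 controls, the lines with DMSO had 5345 to 8520 and the response 1324 to 3647 and 525 to 3132. The 3 in LNCaP and the 11 and 7 of the response came without LNCaP PDA-66 12 h replicate 2. Over all genes, 261 and 105 were then called in LNCaP and 3647 and 3132 for the response. Without LNCaP DMSO replicate 1 the response after 24 h had 5. The 2 of the response after 12 h came without PC-3 DMSO replicate 2. After 24 h it had 2 without PC-3 DMSO replicate 3 and 0 without most other samples. The 2 between the times in PC-3 came without either control. In CT1258, 7 and 6 came without samples of the PDA-66 groups, and between the times 5 without DMSO replicate 2, 0 without PDA-66 12 h replicate 1 and 1 without 12 h replicate 2 or any 24 h sample.

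With a replicate block the counts were 5 in PC-3 after 24 h, 12, 9 and 2 in CT1258 and 0 in LNCaP. Over all genes the block called 4112, 3062 and 132 of 9886 in CT1258 and 0 in LNCaP. It could not be fitted to PC-3 after 12 h, where 2 samples carry no clear number. Deviations of samples with the same number correlated between -0.42 and 0.185, so the numbers did not pair the samples. Of the calls of single members, RLE size factors, DESeq2 and the filter of at least 1 CPM ended none, voom 3, no filter 2, thinning 3, fits of only 2 groups 19 and the replicate block 13. Low counts limit TRIM22 and TNFRSF10D in PC-3 and SFN in LNCaP.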
